A study of Mus musculus with 8 samples.

Results

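Oxidative phosphorylation (OXPHOS) genes encode the 5 complexes of the inner mitochondrial membrane that turn the oxidation of nutrients into ATP, and the CTCF regions that lie at them in mouse cortical neurons are described here. The genes were chosen by name, as the nuclear protein-coding genes whose symbols begin with those of complex I (Nduf), complex II (Sdh), complex III (Uqcr), complex IV (Cox4 to Cox8) or complex V (Atp5) subunits. This gave 92 of 21887 protein-coding genes on the assembled chromosomes. The name pattern fixes only the start of a symbol, so it also took Sdhaf1, Sdhaf2, Sdhaf3 and Sdhaf4, which encode assembly factors of complex II and are kept apart below. No measured value entered the choice. The 13 protein-coding genes of the mitochondrial genome, which encode further subunits, were left out.

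Binding of CTCF, a DNA-binding zinc finger protein that holds chromatin loops in place with cohesin, was measured by sequencing of immunoprecipitated chromatin (ChIP-seq). All cultures were wild-type (WT) primary cortical neurons of Swiss-Webster mice, taken at embryonic day 16 and used on day 13 in vitro. NMDA cultures were given 50 µM NMDA, which opens glutamate receptors of the NMDA class, for 10 minutes and were collected after 50 minutes in medium without it, and control cultures have "None" as their treatment. A growth protocol common to all samples also names etoposide, a topoisomerase inhibitor, which no label gives as a sample's treatment. Each condition had 2 ChIP replicates of about 15M cells, called biological replicates in the labels, and input libraries that were not analysed here. The authors deposited 1 region list per condition, made over its 2 replicates, with 36186 NMDA and 33815 control regions on the assembled chromosomes. Replicate spread is thus not known for a difference between conditions, and none of the values below has a test. Read depth is unknown, and the neuronal identity of the cultures cannot be checked from lists of CTCF regions.

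Complex I takes electrons from NADH and complex II from succinate, complex III passes them to cytochrome c, and complex IV hands them to oxygen. Complexes I, III and IV pump protons across the membrane, and complex V, the ATP synthase, makes ATP as protons flow back. Neurons depend on this pathway for the ion pumping that follows synaptic activity. Its nuclear genes are scattered over the chromosomes, are mostly short and are transcribed in nearly all cells.

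A region was assigned to a gene when its summit lay in the gene's span or within 1 kb of it. A region was called shared when it overlapped a region of the other list by at least 1 bp, and NMDA-only or control-only otherwise. Its strength is the authors' −log10 p over both replicates, called the signal, and is compared only as a percentile within its own list, where 100 is the strongest. Signals grow with depth, so an NMDA signal and a control signal are not on the same scale.

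CTCF lay just upstream of the start of a set of subunit genes in both lists. The start is the 5′ end of the gene span, and strand was known for the 75 of 92 genes that have an entry in the RefSeq promoter table (GRCm38.p6). A summit lay 1 to 250 bases before the start in 12 of these 75 (16%) in the NMDA list, against 5.99% of the 17492 protein-coding genes with a strand. In the control list 12 of 75 (16%) had one, against 5.91%. They were the same 12 genes in both lists. Of them Ndufa6, Ndufab1, Ndufb7, Ndufb10, Ndufc1 and Ndufv1 belong to complex I, Sdhd to complex II, Sdhaf3 to complex II assembly, Cox5a to complex IV, and Atp5c1, Atp5g2 and Atp5k to complex V.

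Sequence around the NMDA summit is shown for 7 of the 8 genes in which a short form of the CTCF core was found near the summit (the other is Ndufb10). Of the genes in which neither form was found, Sdhd alone is shown. Each stretch is 121 bases of RefSeq sequence (GRCm38.p6, the assembly of mm10), 60 on each side of the summit, read 5′ to 3′ on the strand of the gene. Capitals mark a match to AGNGGGC or AGGNGGNG on either strand, 2 patterns whose letters can overlap, as they do at Ndufc1. The stretches lie at chr15:102671145-102671265 (minus strand, summit 158 bases before the start), chr3:51408996-51409116 (minus strand, 101 bases), chr15:82354377-82354497 (minus strand, 146 bases) and chr7:122101896-122102016 (minus strand, 108 bases). The others lie at chr5:108434443-108434563 (minus strand, 104 bases), chr8:83566617-83566737 (plus strand, 81 bases), chr19:4012874-4012994 (minus strand, 179 bases) and chr9:50603974-50604094 (minus strand, 185 bases).
Atp5g2: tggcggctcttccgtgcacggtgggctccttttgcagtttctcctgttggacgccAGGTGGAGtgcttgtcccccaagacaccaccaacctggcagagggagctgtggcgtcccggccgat
Ndufc1: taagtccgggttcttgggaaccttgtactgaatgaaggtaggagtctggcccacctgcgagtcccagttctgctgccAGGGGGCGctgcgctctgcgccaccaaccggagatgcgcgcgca
Ndufa6: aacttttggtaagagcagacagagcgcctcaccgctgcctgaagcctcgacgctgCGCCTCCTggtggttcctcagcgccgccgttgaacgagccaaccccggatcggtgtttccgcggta
Ndufab1: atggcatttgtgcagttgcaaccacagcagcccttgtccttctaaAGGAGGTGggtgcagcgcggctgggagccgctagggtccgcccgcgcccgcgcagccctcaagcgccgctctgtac
Atp5k: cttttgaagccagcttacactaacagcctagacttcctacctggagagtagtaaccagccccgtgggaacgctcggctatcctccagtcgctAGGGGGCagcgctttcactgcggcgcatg
Ndufb7: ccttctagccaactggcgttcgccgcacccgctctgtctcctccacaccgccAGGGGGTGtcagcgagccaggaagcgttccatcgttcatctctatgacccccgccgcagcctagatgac
Ndufv1: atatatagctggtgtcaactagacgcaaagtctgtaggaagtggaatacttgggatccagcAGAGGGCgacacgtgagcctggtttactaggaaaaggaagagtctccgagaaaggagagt
Sdhd: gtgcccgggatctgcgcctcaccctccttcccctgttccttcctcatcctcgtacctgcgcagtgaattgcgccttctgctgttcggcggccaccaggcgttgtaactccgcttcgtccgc
The centre of the match lay 1 base from the summit at Atp5g2 and Ndufa6, 4 bases at Ndufb7 and Ndufv1, 11 at Ndufab1, 20 at Ndufc1 and 35 at Atp5k. At Ndufa6 the match is on the opposite strand. Neither form was found near the summit at Sdhaf3 or Atp5c1, which are not shown. Nor was either found near the summit in the Cox5a promoter window, which belongs to a region inside the span. Ndufc1 was the only one of 75 OXPHOS promoters (1.33%) with the longer letters AGGGGGCGC in the window from 250 bases before to 50 after the start, against 1.94% of 17492 protein-coding genes. Among promoters with an NMDA summit in that window, 1 of 12 (8.33%) held AGGGGGCGC, against 12.3% over all genes with one. The short forms are common, with AGNGGGC in this window at 32.7% and AGGNGGNG at 46.3% of all protein-coding genes. AGGNGGNG was chosen after the promoter sequences were seen. It was the only form near the summit at Atp5g2, Ndufa6, Ndufab1, Ndufb7 and Ndufb10. The share over all genes with a match within 60 bases of a summit is not given here. A match of letters is a description of the sequence and not a binding site.

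The strongest of these upstream regions belonged to Atp5g2, which encodes the c subunit of the rotating ring of the ATP synthase. Its NMDA region (chr15:102670195-102673136) had a signal of 927, of which 488 came from the first replicate column and 439 from the second, and stood at the 99.7th percentile. Its control region had a signal of 1684 and stood at the 99.8th percentile. The region was thus among the strongest of either list. Atp5k encodes subunit e, a small membrane subunit of the same enzyme, and had a signal of 591 (97.8th percentile) in the NMDA list and 867 (96.9th percentile) in the control list.

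In complex I the strongest upstream region lay at Ndufc1, a small accessory subunit of the membrane arm. Its signal was 797 in the NMDA list (436 and 361 in the replicate columns) and 1372 in the control list, at the 99.3rd percentile in both. Ndufa6, an accessory subunit that binds the mitochondrial acyl carrier protein, had 681 (98.6th percentile) in the NMDA list and 1040 (98.1st percentile) in the control list. Ndufab1 encodes that acyl carrier protein, which also serves mitochondrial fatty acid synthesis. Its upstream region had 606 (98.0th percentile) in the NMDA list and 1500 (99.5th percentile) in the control list, and a weaker region inside the gene stood at the 88.6th NMDA and the 82.5th control percentile.

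The membrane arm genes Ndufb10 and Ndufb7 followed. The signal at Ndufb10 was 394 (93.1st percentile) in the NMDA list and 622 (93.7th percentile) in the control list, and that at Ndufb7 was 295 (87.1st percentile) in the NMDA list and 616 (93.6th percentile) in the control list. The Cox5a summit, which lay 2 bases before the start in the NMDA list and 15 in the control list, had a signal of 242 (81.6th percentile) in the NMDA list and 328 (76.9th percentile) in the control list. Cox5a encodes a nuclear subunit of cytochrome c oxidase, and Ndufv1 encodes the core subunit that oxidises NADH. Ndufv1 had 183 (72.7th percentile) in the NMDA list and 386 (82.7th percentile) in the control list. Ndufv2, a core iron-sulphur subunit gene, had its summit farther upstream, at 290 bases in the NMDA list and 301 in the control list. Its signal was 304 (87.8th percentile) in the NMDA list and 456 (87.7th percentile) in the control list. Weaker regions within 250 bases of the start lay at Sdhaf3, at Sdhd, a membrane anchor of complex II, and at Atp5c1, the γ subunit of the central stalk. Their percentiles were 42.4, 26.6 and 23.5 in the NMDA list, against 50.3, 38.8 and 12.6 in the control list. The Sdhd region also lay in the window of Timm8b and the Atp5c1 region in that of Kin.

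The 12 upstream regions had a median percentile of 90.1 in the NMDA list and 93.7 in the control list. All regions with a summit 1 to 250 bases before a start had medians of 69.8 (n = 1029) in the NMDA list and 78.4 (n = 1015) in the control list. With the summit 0 to 250 bases after a start the medians were 31.9 in the NMDA list and 37.1 in the control list. Regions just upstream of a start thus ranked above those just downstream over all genes as well. Of 21 NMDA regions within 1 kb of an OXPHOS gene start, 18 (85.7%) had the summit upstream, against 43.9% of 4404 over all protein-coding genes. In the control list it was 20 of 26 (76.9%), against 43.2% of 4300. As genes, 21 of 75 (28.0%) had an NMDA region within 1 kb of the start, against 24.7%, and 25 of 75 (33.3%) a control region, against 24.2%.

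**Figure D1:**
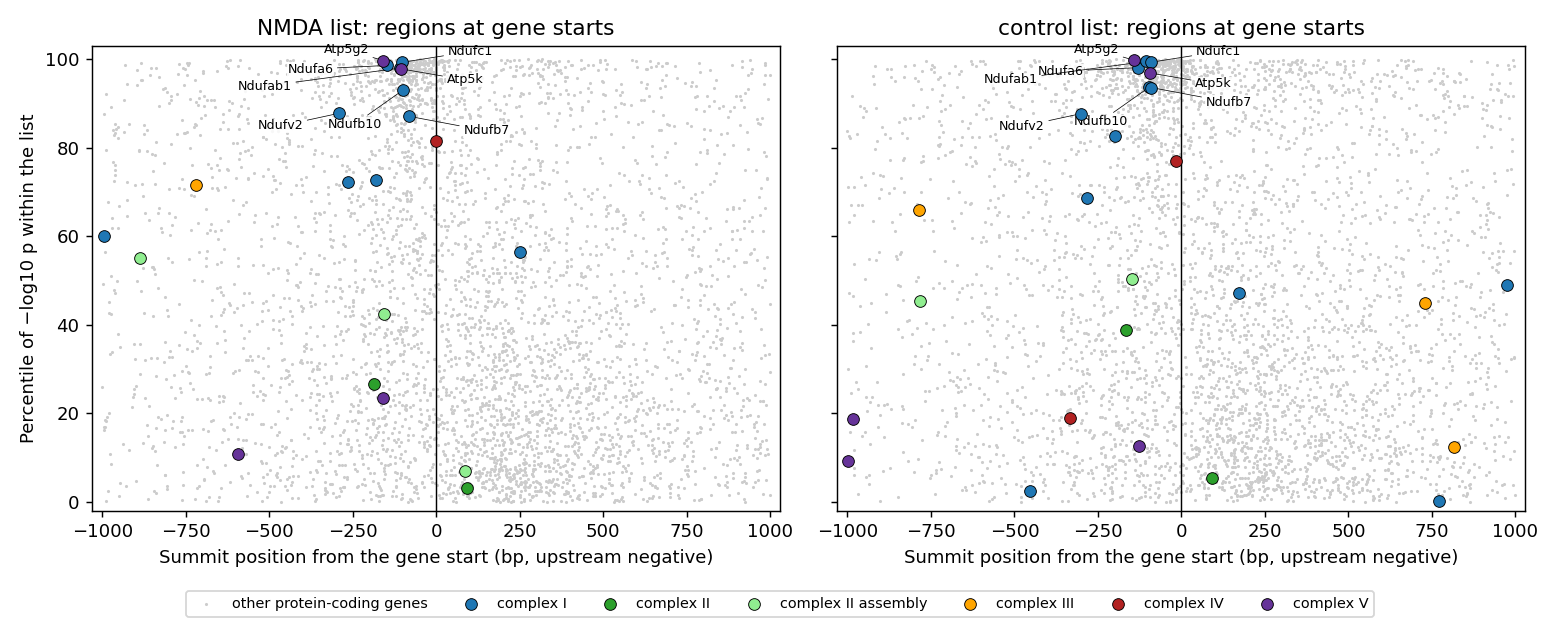
Regions with a summit within 1 kb of a gene start, in the NMDA list (left) and the control list (right), by distance of the summit from the start in bp and percentile of −log10 p within the list. Coloured points are OXPHOS gene regions by complex and grey points regions of other protein-coding genes; 12 OXPHOS points in each list lie 1 to 250 bases upstream, with a median percentile of 90.1 in the NMDA list and 93.7 in the control list.

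The upstream share of the OXPHOS genes was above that of all genes in each class of span length, which over 20 kb rests on 2 genes. OXPHOS genes are short, with a median span of 7228 bp against 17169 bp over all protein-coding genes. Among spans under 5 kb, 5 of 24 (20.8%) had an NMDA summit 1 to 250 bases before the start, against 3.09% of all protein-coding genes of that length. Between 5 and 20 kb it was 5 of 41 (12.2%) against 6.44%, and over 20 kb 2 of 10 (20.0%) against 7.16%. The control list gave the same OXPHOS counts, against 2.97%, 6.28% and 7.16%. Mitochondrial ribosomal protein genes, another family of short nuclear genes for mitochondrial proteins, had a summit there in 8 of 69 (11.6%) in each list.

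Letters of factors known to act at nuclear genes of mitochondrial proteins were counted in the same 75 promoter windows, on both strands. GCATGCGC, the letters bound by NRF1, was found in 10 (13.3%), against 3.94% of all protein-coding genes. AAGATGGC, bound by YY1, was also found in 10 (13.3%), against 3.57%. AAGGTCA, bound by oestrogen-related receptors, was found in 8 (10.7%) against 4.73%, and CCGGAAGT, bound by GABPA, in 5 (6.67%) against 5.69%. The shorter CTCF pattern AGNGGGC was found in 30 (40.0%) against 32.7%, and AGGNGGNG in 37 (49.3%) against 46.3%. Of the 12 OXPHOS promoters with an NMDA summit in this window, 7 held AGNGGGC and 8 held AGGNGGNG. These are the 12 genes of the upstream set, although the promoter table can hold a start other than the end of the span, as at Cox5a and Sdhaf3. At Cox5a the summit in the promoter window belongs to another region inside the span, at the 16.6th percentile of the NMDA list. Over all genes with a summit in the window, 54.7% held AGNGGGC and 61.6% AGGNGGNG, against 30.4% and 44.5% of those without. Of the NRF1 matches, 3 fell at the 12 genes with a summit in the window, Atp5g2, Atp5k and Ndufa6, and 7 at the 63 without. Over all genes with a summit in the window, 4.75% held the NRF1 letters, and 3.79% of those without. The letters of oestrogen-related receptors were found at 2 of the 12 and 6 of the 63, against 2.47% and 4.84% over all genes. Those of YY1 were found at 1 of the 12 and 9 of the 63, against 3.99% and 3.44%. Those of GABPA were found at 0 of the 12 and 5 of the 63, against 7.98% and 5.38%.

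Across the gene spans and flanks, 44 of the 92 OXPHOS genes (47.8%) had a region in at least 1 list, against 55.4% of all protein-coding genes. In the NMDA list 41 (44.6%) had one, against 52.7%, and in the control list 39 (42.4%), against 51.4%. Both lists had a region at 36 genes (39.1%), against 48.7%. With a flank of 5 kb the control share was above that of all genes (59 genes, 64.1%, against 59.9%). The share went with the length of the span. Under 5 kb, 11 of 30 OXPHOS genes (36.7%) had a region in either list, against 22.2% of all protein-coding genes of that length. From 5 to 20 kb it was 24 of 49 (49.0%) against 50.0%, and over 20 kb 9 of 13 (69.2%) against 75.7%. Mitochondrial ribosomal protein genes had a region in 48 of 78 (61.5%). No region served 2 OXPHOS genes, but 12 of the 58 NMDA and 15 of the 59 control regions also lay in the window of another gene.

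By complex, a region was found in either list at 17 of 41 complex I genes, 3 of 4 complex II genes, 3 of 4 complex II assembly genes, 4 of 8 complex III genes, 7 of 18 complex IV genes and 10 of 17 complex V genes. Of 8 isoforms known mainly from muscle, testis, lung or hypoxic cells, 2 had a region, Ndufa4l2 and Cox7b2. Span length was not matched in this count or in those by complex. Cox6a2, Cox6b2, Cox7a1, Cox8b and Cox8c had none, with spans under 5 kb, where 22.2% of all protein-coding genes had a region. Cox4i2 also had none, with a span from 5 to 20 kb, where that share was 50.0%. The 48 genes with none included 24 of complex I, among them the core subunit genes Ndufs1, Ndufs3 and Ndufs8. They also included Sdhc of complex II, Sdhaf4 and 4 of complex III, which were Uqcr10, Uqcrc1, Uqcrq and Uqcrfs1, the gene of the Rieske iron-sulphur protein. In complex IV 11 had none, among them Cox5b, Cox6c, Cox7a2, Cox7c and Cox8a. In complex V 7 had none, among them Atp5a1, the gene of the α subunit, Atp5g1, Atp5g3, Atp5e and Atp5j. Of the 3 genes for the c subunit, Atp5g2 thus had a region and Atp5g1 and Atp5g3 had none.

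**Figure D2:**
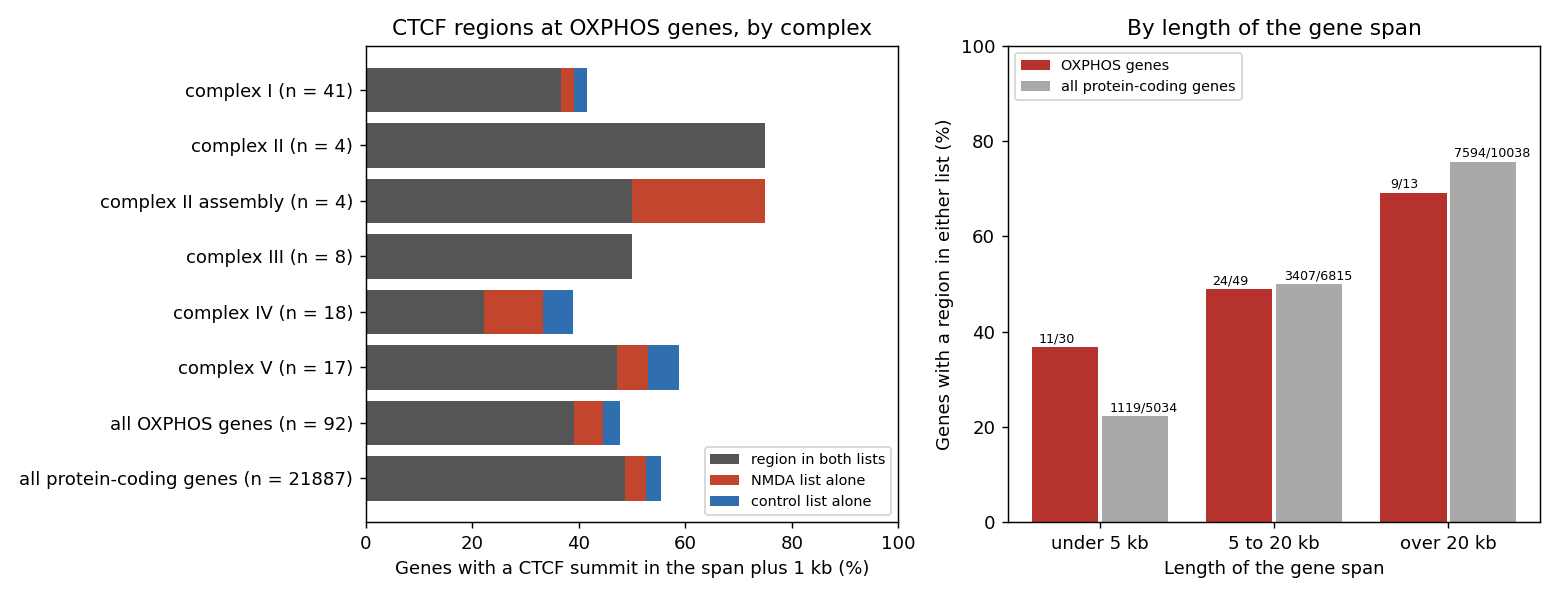
Left, share of OXPHOS genes in each complex with a CTCF summit in the span or within 1 kb (in both lists, in the NMDA list alone or in the control list alone), with all protein-coding genes in the lowest bar. Right, share with a region in either list by span length, for OXPHOS genes and all protein-coding genes, with counts above the bars; under 5 kb the shares are 36.7% and 22.2%.

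The strongest region at any OXPHOS gene was not at a start. It lay inside the span of Ndufa4l2, a paralogue of Ndufa4 that hypoxia induces (chr10:127511684-127514198). Its signal was 1305 in the NMDA list, the 22nd strongest there, with 663 and 642 in the replicate columns, and 1932 in the control list, at the 99.9th percentile in both. The strand of Ndufa4l2 is not given here, and the NMDA summit lay 3726 bp from the nearer end of the span. A region at the end of Atp5mpl, the gene of a small proteolipid of the ATP synthase, had 748 (99.1st percentile) in the NMDA list and 1244 (98.9th percentile) in the control list. Sdhaf2, which adds the flavin cofactor to Sdha, had 3 regions in each list, the strongest inside the gene at 448 (95.1st percentile) in the NMDA list and 535 (91.3rd percentile) in the control list.

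Most regions were shared, 52 of 58 in the NMDA list (89.7%) and 52 of 59 in the control list (88.1%), against 84.5% and 90.8% of all regions of those lists. The OXPHOS gene regions had a median percentile of 65.6 in the NMDA list and 56.0 in the control list. Their median width was 1363 bp in the NMDA list, where all regions had 1182 bp, and 1193 bp in the control list, where all regions had 1123 bp. By position, 21 NMDA regions lay at a start, 3 at a 3′ end, 5 at an end of a gene without strand and 29 in the body, and for control regions these were 26, 3, 4 and 26. At a gene end, 29 genes (31.5%) had an NMDA region against 29.5% of all protein-coding genes, and 30 (32.6%) a control region against 29.0%. With summits inside the span only, the shares were below those of all genes, at 5 genes (5.43%) against 16.7% in the NMDA list and 9 (9.78%) against 16.6% in the control list. Several regions were found at 15 genes in the NMDA list (16.3%, against 25.5%) and at 16 in the control list (17.4%, against 24.0%), with span length not matched. Among them Sdha, the flavoprotein subunit of complex II, Uqcrh and Ndufa13 had several in both lists.

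An NMDA-only region was found at 6 of the 92 OXPHOS genes (6.52%), against 14.0% of all protein-coding genes, and a control-only region at 6 (6.52%), against 9.28%. Span length was not matched in these shares, and the median span was 7228 bp for OXPHOS genes against 17169 bp. The NMDA-only regions were weak, between the 5.10th and the 16.9th percentile of the NMDA list. The control-only regions lay between the 0.266th and the 29.2nd percentile of the control list. List-only regions were weak over all genes as well. The median percentile was 11.7 for the OXPHOS NMDA-only regions and 12.3 for all 5616. For control-only regions it was 12.5 and, over all 3117, 9.51. At a gene end 3 genes (3.26%) had an NMDA-only region, against 4.28%, and 5 (5.43%) a control-only region, against 3.53%. None of the 41 complex I genes had an NMDA-only region. Complex IV had 3 of the 6, which is 3 of its 18 genes (16.7%), near the 14.0% of all protein-coding genes.

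In complex IV, Cox7b, a subunit gene on the X chromosome, had an NMDA-only region in its body (chrX:106018605-106019727) with a signal of 32.6, made up of 17.7 and 14.9 in the replicate columns. Cox4i1, the widely expressed form of subunit 4, had one of 29.7 at an end (chr8:120666791-120668105), which also lay in the windows of Emc8 and Gm27021. Cox6b1, a subunit on the intermembrane side, had one of 28.7 in its body (chr7:30623637-30624560), beside a shared region at the 52.1st percentile of the NMDA list and the 51.8th of the control list. Values at the other 3 genes were of the same size. Atp5o, the stalk subunit that confers oligomycin sensitivity, had 27.3 with the summit 592 bases upstream (chr16:91931541-91932608). Sdhaf1, an assembly factor for the iron-sulphur subunit of complex II, had 24.3 at its start (chr7:30321795-30322558). Uqcrh, the hinge protein of complex III, had 23.0 in its body (chr4:116067686-116068642), beside 2 shared regions.

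The control-only regions numbered 7 at 6 genes. Ndufv3, an accessory subunit gene of the NADH-oxidising module, had 2, with control signals of 34.0 at the start (chr17:31520029-31521145) and 73.4 in the body (chr17:31521986-31522855), beside a shared region. Ndufa4, named for complex I and later placed with complex IV, had 38.9 with the summit 452 bases upstream (chr6:11907602-11908876). Cox5a had the strongest of them, 91.7 in its body (chr9:57523431-57524491). The other control signals were 67.4 at Cox7a2l, a supercomplex assembly gene (chr17:83513877-83514900), 55.4 at Uqcr11 (chr10:80405651-80406323) and 50.0 at Atp5l (chr9:44921498-44922109). The Atp5l summit lay 999 bp outside the span, just inside the 1 kb limit.

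By window rather than by region, 5 genes had a summit in the NMDA list alone (5.43%, against 4.00%) and 3 in the control list alone (3.26%, against 2.64%). Those with the NMDA list alone were Atp5o, Cox4i1, Cox7b, Ndufs7 and Sdhaf1, and those with the control list alone were Atp5h, Cox7a2l and Ndufa4. At Ndufs7 and Atp5h the region itself was shared and only the summits fell on either side of the limit. The Ndufs7 summit lay 994 bp from the span in the NMDA list and 1013 bp in the control list, and the Atp5h summit 1036 bp in the NMDA list and 983 bp in the control list. The limit also divided Atp5d, the gene of the δ subunit. A wide NMDA region with a signal of 1039 (chr10:80144394-80151377, 99.8th percentile) had its summit 1368 bp outside, while the control region it overlapped (608, 93.5th percentile) had its summit inside.

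Most shared regions had a similar rank in the NMDA list and in the control list. The percentile in the NMDA list minus that in the control list had a median of 0.2 points over the 52 shared OXPHOS regions, with a range from −24.7 to 28.8. Over all 30570 shared NMDA regions the median was 2.3 points, and the 5th and 95th percentiles were −15.6 and 20.1. The OXPHOS region ranked higher in the NMDA list in 30 of 52 pairs (57.7%), against 61.3% of all shared regions. The summits of a pair lay a median of 15 bp apart, and 45 of 52 (86.5%) were within 100 bp, against 93.1%.

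The largest difference toward the NMDA list was at Uqcrc2, a core protein of complex III (chr7:120634374-120636197). It stood at the 34.2nd percentile in the NMDA list and at the 5.36th in the control list, a difference of 28.8 points, with summits 602 bp apart. A region inside Atp5d followed at the 39.2nd NMDA and the 11.5th control percentile (27.7 points), and one inside Ndufa13 at the 71.2nd NMDA and the 48.9th control percentile (22.3 points). Sdhaf3 and Ndufs7 had differences of 20.8 and 15.8 points. At Uqcrc2 and Atp5d, and at Sdhaf3 where the summits were 469 bp apart, the overlapping regions thus peaked at different places.

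The largest difference toward the control list was at Ndufa12, an accessory subunit gene (chr10:94209909-94211005). Its region in the gene body stood at the 23.8th percentile in the NMDA list (signal 39.7, with 13.4 and 26.3 in the replicate columns) and at the 48.6th in the control list (signal 159), with summits 3 bp apart. A different region of Atp5d differed by −18.0 points, with the 68.0th NMDA and the 86.0th control percentile. Atp5d thus held regions that differed in opposite directions. Atp5pb, the b subunit of the stalk, differed by −15.2 points and Sdhd by −12.2. Atp5b, the catalytic β subunit, differed by −13 points, with summits 743 bp apart. Its control region (chr10:128090509-128093775) also overlapped a further NMDA region (chr10:128091995-128093674) outside the gene window.

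**Figure D3:**
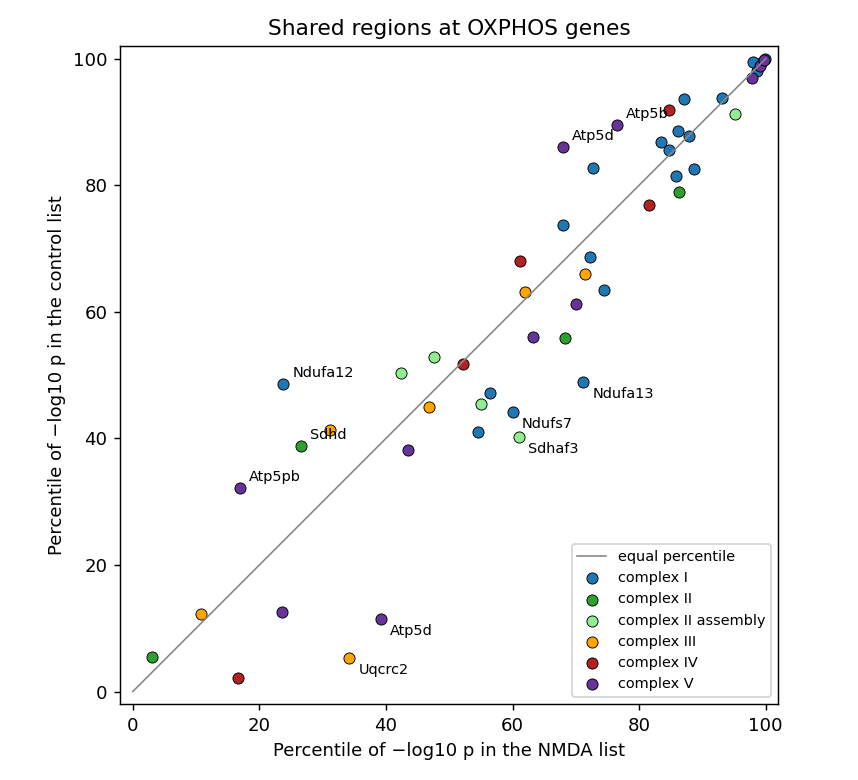
Percentile of −log10 p in the NMDA list (horizontal) and in the control list (vertical) for the 52 shared regions at OXPHOS genes, coloured by complex, with the line of equal percentile. The labelled regions are the 5 with the largest difference in each direction; the median difference, NMDA minus control, is 0.2 points.

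The NMDA list gives a −log10 p for each replicate, the only view of replicate spread in the lists. In percentiles, the replicate columns differed by a median of 8.2 points over the 58 OXPHOS regions and 9.3 points over all 36186 NMDA regions. The gap was above 20 points in 5 OXPHOS regions (8.62%), against 18.6% of all regions, and these lay at Cox7b2, Sdhaf2, Sdha, Uqcrc2 and Sdhd. At Cox7b2, a testis form of subunit 7b, the first column stood at the 30.4th percentile and the second at the 71.1st. The Uqcrc2 region named above was at the 18.7th and the 41.4th, so its replicate columns lay apart as well. The columns of the Ndufa12 body region were at the 19.1st and the 28.4th, both below its control percentile of 48.6. This region was named for its low NMDA rank beside the control rank, and its NMDA signal is the sum of these columns. They are thus not a separate check of that difference. Control values per replicate are not analysed here, since that list holds none.

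**Figure D4:**
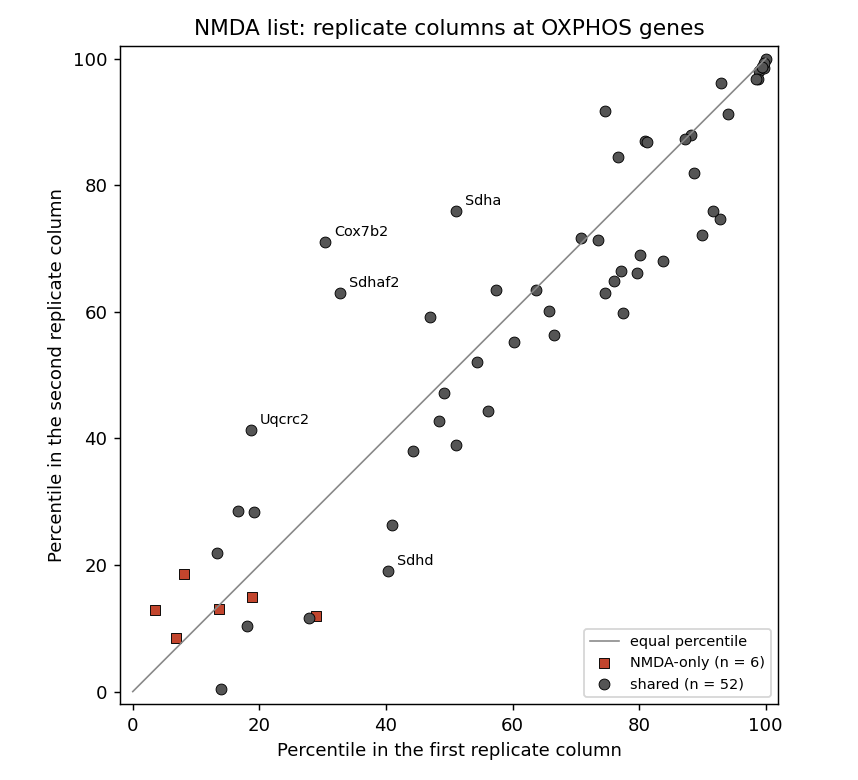
Percentile of −log10 p in the first (horizontal) and the second (vertical) replicate column of the NMDA list for the 58 regions at OXPHOS genes, with the line of equal percentile. Red squares are the 6 NMDA-only regions and grey circles the 52 shared ones; the 5 labelled regions have a gap above 20 points.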

How the data were processed

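CTCF ChIP-seq was available as 1 region list for NMDA and 1 for control, each deposited by the authors after the irreproducible discovery rate (IDR) step, which keeps regions that recur in both of 2 replicates. The tools named in the submitters' processing notes are MACS2, BWA, SAMtools, Trimmomatic and FastQC, and the builds are mm10 and GRCm38.p6. No tool version is given in the sources used here. The score that the authors deposited rises with reproducibility, from 540 to a ceiling of 1000 in both lists. The −log10 p-value that the authors deposited for each region was used as its signal and only ranked within a list. For 36186 of 36186 NMDA regions the sum of the 2 replicate columns gave this value, within 0.001. It is not known which replicate each column holds. Regions off the assembled chromosomes were left out (7 NMDA, 5 control).

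Gene spans and promoter sequences came from RefSeq tables of GRCm38.p6. Summits were placed in spans widened by 1 kb, and regions were paired by an overlap of at least 1 bp, with Python 3.11.15, numpy 2.4.6 and pandas 2.3.3. The pairing and placing were checked on simulated regions. No test was made, since each condition is 1 list. Alternatives were a stricter IDR of 0.01, other overlaps, flanks of 0 and 5 kb, a shortened NMDA list, single replicate columns and another CTCF pattern. AGGNGGNG was chosen after the promoter sequences were seen. Members, gene lists and measures were chosen with earlier results of these data known. Named were genes with a list-only region, the 10 with the strongest shared NMDA region, the 5 with the largest rank difference each way, those with several regions and up to 5 per complex with none. The other genes of the upstream set were named after their values were seen. The values of 1 gene with several regions are not reported here.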

Additional observations from a re-analysis of the deposited data

How the results depend on the processing

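Of 60 values under the alternatives, 48 stayed within the stated margin (1.5-fold for counts). Some of these could not move. Counting each region once changed nothing, since no region served several OXPHOS genes. Counts at a gene end were identical at flanks of 1 and 5 kb, since an end reaches no farther than 1 kb. The set of genes with a summit just upstream of the start was not recomputed under any alternative. In that set, the Atp5c1 control region had a score of 802, below the 830 of an IDR of 0.01. Shares of the 92 OXPHOS genes are given against those of all protein-coding genes at the same setting, with span length not matched. Without a flank, 27 had an NMDA region (29.3% against 45.6%), 25 a control region (27.2% against 44.3%) and 3 a control-only region (3.26% against 8.19%). At an end, where the shares were above those of all genes with the flank, 5 had an NMDA region (5.43% against 16.7%) and 9 a control region (9.78% against 16.6%). With a flank of 5 kb, 13 had an NMDA-only region (14.1% against 17.2%) and 10 a control-only region (10.9% against 10.9%). There 59 had a control region (64.1% against 59.9%), above all genes where it was below them at 1 kb. With shared regions defined by summits within 100 bp, 12 had an NMDA-only region (13% against 19.7%) and 11 a control-only region (12% against 15.6%). At an IDR of 0.01 or better 3 had a control-only region (3.26% against 4.82%). AGNGGGC was found at 7 of the 12 promoters with an NMDA summit, and the longer letters AGGGGGCGC at 1. For the longer letters this is 8.33%, against 12.3% over all genes with an NMDA summit in the window. Ranking by the seventh column was not run, since it holds −1 throughout. No paired analysis was possible because each condition is 1 list and the control list has no replicate columns. Depth is unknown, so a region in 1 list alone shows detection in that list and not absence from the other.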

Other observations

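Genes that serve the pathway but fall outside the name pattern were counted in the same way. Among them Cyc1, the cytochrome c1 subunit gene of complex III, was counted with the electron carriers and not with complex III above. Of 70 assembly factors, electron carriers and regulators, 49 (70.0%) had a region in either list, against 55.4% of all protein-coding genes. An NMDA-only region was found at 14 (20.0%, against 14.0%) and a control-only region at 4 (5.71%, against 9.28%). Span length was not matched in these shares or in the counts by group. Over all protein-coding genes the share in either list ran from 22.2% for spans under 5 kb to 75.7% over 20 kb. By group, a region in either list was found at 8 of 18 complex I assembly genes, 5 of 6 for complex III, 16 of 23 for complex IV, 3 of 4 for complex V, 4 of 5 electron carriers and their partners and 13 of 14 regulators.

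The strongest NMDA-only region among them lay in the span of Polrmt, the mitochondrial RNA polymerase, near its start, with a signal of 71.4 (42.6th NMDA percentile). Ppargc1b, a coactivator of mitochondrial genes, followed with 70.6 in its body (42.3rd NMDA percentile). Ndufaf2, a complex I assembly factor, had NMDA-only regions of 56.3 and 38.1 (35.2nd and 22.3rd NMDA percentile). Surf1, a complex IV assembly factor, had 26.3 (9.74th NMDA percentile). A control-only region lay at Nrf1, a transcription factor of nuclear mitochondrial genes, with a control signal of 107 (34.5th control percentile). Ppargc1a, a coactivator, had control signals of 72.8 and 40.9 (21.5th and 3.71st control percentile). Bcs1l, a complex III assembly factor, had 71.5 (20.9th control percentile). Coa6, a complex IV assembly factor, had 36.4 (1.20th control percentile). Near the start of Nrf1 an NMDA region of 29.3 (13.2nd percentile), with its summit 1239 bp from the start, overlapped a control region of 255 (67.1st percentile), with its summit at 613 bp. The overlapping regions thus peaked at different places. Rank differences at the other shared regions of these 70 genes are not given here.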
